A study of Mus musculus with 4 samples.

Results

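Ubiquitin-specific proteases form the largest family of deubiquitinases, enzymes that remove the small protein ubiquitin from other proteins. Members were taken as every symbol of the RefSeq table that starts with Usp and a digit, leaving out the Usp17 genes, a multicopy set of deubiquitinases. The rule gave 51 of 19797 symbols, and 45 of the 51 had a mean of at least 1 FPKM (fragments per kilobase of transcript, scaled to the size of the library) over the 4 libraries and were tested among 12050 genes. The symbol rule also takes in Usp6nl, which is named after its similarity to part of a human protease but encodes a GTPase-activating protein for Rab GTPases. It also takes in members whose catalytic domain is divergent, among them Usp39, Usp50, Usp53 and Usp54.

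RNA-seq was made from MC1-ZE7, a mouse embryonic stem (ES) cell line of strain MC1 (129S6/SvEvTac) whose Emerald fluorescence reports Zscan4, a gene cluster switched on at intervals in a minority of ES cells. The cells grew without feeders in medium with serum and LIF and were sorted on Emerald by flow cytometry, and total RNA depleted of ribosomal RNA gave stranded libraries. The high Emerald fraction (Em+) and the fraction without Emerald (Em-) have 2 libraries each, carry the same reporter and come from 1 cell line. Fractions were taken from the sample titles and the cell type field, which match for each sample, whereas the description field names the opposite fraction each time. Separate cultures or separate sorts are not stated for the libraries, and their spread, on which the p-values rest, may therefore be technical.

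A ubiquitin-specific protease cuts the bond between ubiquitin and its substrate, or between ubiquitins of a chain, with a cysteine in its active site. Different members act on histones, on regulators of p53 and the cell cycle, at the proteasome, on receptors in endosomes, or at the outer membrane of mitochondria. Several are kept active or placed by a partner protein, such as Wdr48 for Usp1 or the Atxn7l3 module for Usp22. In ES cells the histone proteases and the Myc and p53 regulators of the family are the best studied members.

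The libraries held 16468218 to 18953217 counts in the RefSeq table, and the common biological coefficient of variation over all tested genes was 0.0731. Summed over 6 Zscan4 genes, FPKM was 49.5 and 44.5 in Em+ against 0.451 and 0.547 in Em-, and all 3 tested Zscan4 genes were higher in Em+. The 8 ES cell markers were all tested and gave summed FPKM of 1299 and 987 in Em+ and 1353 and 1341 in Em-, with Nanog higher in Em+ and no other marker called. Of 7 fibroblast markers 3 were listed, with summed FPKM of 6.16 and 5.07 in Em+ and 3.24 and 3.47 in Em-, mostly from Thy1. Thy1 was called higher in Em+ (log2 fold change 0.89), Col1a1 held 45 and 47 counts against 18 and 28, and Col3a1, Postn, Dcn and Lum were not listed. Few genes of the other marker lists passed the filter, 2 of 6 for primitive endoderm, 1 of 6 for mesoderm and ectoderm and 1 of the 2 listed for blood, and none of these was called. Among the untested ones was Sox17, a primitive endoderm gene. Its CPM (counts scaled to library size with TMM) was 2.84 and 2.91 in Em+ and 1.70 and 1.63 in Em-. The other primitive endoderm genes showed smaller or opposite differences. Gata4 (log2 fold change -0.08) and Lama1 (-0.14) were tested. Gata6 was at 3.40 and 3.16 CPM against 3.02 and 2.90, and Dab2 at 5.30 and 4.80 against 3.68 and 4.58. Foxa2 was at 0.725 and 0.884 against 1.04 and 0.738. Whether these markers bear on the values below was not tested, and in sorted bulk RNA a change in the share of expressing cells and a change in RNA per cell cannot be told apart.

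The promoter windows of 3 sex-linked members are shown to set the 2 members with the largest differences between the fractions, Usp26 and Usp9y, beside Usp27x, an X-linked member with similar levels in both. Each window is the 250 bases before the gene start in RefSeq's GRCm38.p6 (mm10) annotation, written 5′ to 3′ on the gene's own strand, with CG dinucleotides in capitals. The Usp26 window lies at chrX:51801234-51801483 on the minus strand, the Usp9y window at chrY:1459783-1460032 on the minus strand and the Usp27x window at chrX:7375831-7376080 on the minus strand.
Usp26: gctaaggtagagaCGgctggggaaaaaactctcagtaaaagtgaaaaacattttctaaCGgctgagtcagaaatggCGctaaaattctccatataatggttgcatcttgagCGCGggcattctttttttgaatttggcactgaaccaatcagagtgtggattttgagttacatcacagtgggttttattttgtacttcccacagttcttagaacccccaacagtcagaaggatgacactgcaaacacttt
Usp9y: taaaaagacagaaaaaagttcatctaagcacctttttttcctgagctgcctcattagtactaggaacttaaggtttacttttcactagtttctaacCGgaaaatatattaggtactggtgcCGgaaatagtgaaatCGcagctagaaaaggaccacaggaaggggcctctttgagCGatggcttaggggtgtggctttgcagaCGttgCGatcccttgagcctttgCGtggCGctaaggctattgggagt
Usp27x: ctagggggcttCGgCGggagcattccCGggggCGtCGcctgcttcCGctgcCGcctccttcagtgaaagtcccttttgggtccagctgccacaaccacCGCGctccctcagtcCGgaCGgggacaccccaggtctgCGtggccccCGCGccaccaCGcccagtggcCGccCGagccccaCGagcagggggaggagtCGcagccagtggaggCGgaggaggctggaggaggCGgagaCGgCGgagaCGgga

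The Usp26 window held 5 CG dinucleotides and was 41.2% G or C. The Usp9y window held 8 and was 44.8% G or C. The Usp27x window held 24 and was 72.4% G or C. Windows were found for 39 of the 51 members, with a median of 24 CG dinucleotides against 6 over all 32851 windows of the table. At least 10 were present in 30 members, or 76.9%, against 37.8% of all windows. Only 5 of the 39 members had no more CG dinucleotides than Usp26, namely Usp26 itself, Usp11, Usp50, Usp51 and Usp54. Of these, Usp11 and Usp51 are also X-linked. Usp11 and Usp54 were tested and not called, and Usp50 and Usp51 overlapped between the fractions in CPM. The letters GGGCGG, searched on both strands, occurred in 26 members (66.7%, against 32.7% of all windows), among them Usp27x. CCAAT on either strand occurred in 9 (23.1%, against 33.8%), among them Usp26, Usp9y and Usp11, and TATAAA in 2 (5.13%, against 12.4%). These are letter matches in a fixed window, not binding sites.

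Most of the family was transcribed in these cells. Median FPKM over the 51 members was 7.37, and 22 had a mean of at least 10. The tested members had a median of 9.41, against 6.89 over all tested genes. Per length, Usp28 was highest with a mean of 50.9 FPKM, followed by Usp9x (42.4), Usp48 (41.0), Usp7 (37.6) and Usp14 (28.6). Summed over the 51 members, FPKM came to 632 in Em+ replicate 1, 576 in Em+ replicate 2, 632 in Em- replicate 1 and 634 in Em- replicate 2. Em+ replicate 2 was the low library, and the other Em+ library lay at the Em- level. FPKM is scaled to a library total that also holds reads outside the RefSeq table. RefSeq counts came to 43.4% of that total in Em+ replicate 2 and 49.0% in Em+ replicate 1. In Em- they came to 51.1% and 50.7%. The low sum is therefore not read as lower transcription of the family in Em+ replicate 2. For the 5 Usp17 genes the same sums were 34.3 and 34.0 against 0.181 and 0.291.

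**Figure D1:**
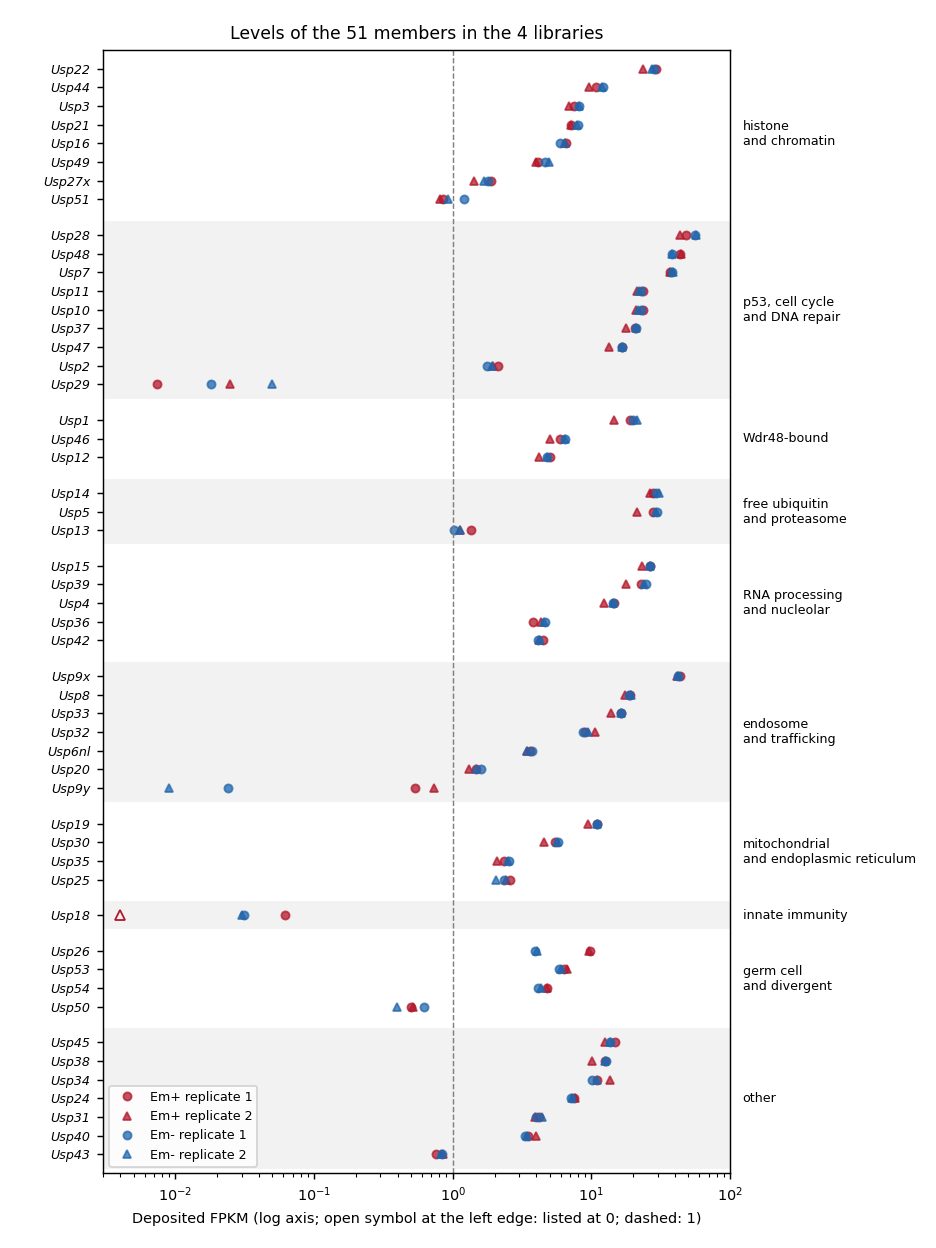
Deposited FPKM (log axis) of the 51 members in each of the 4 libraries, grouped by role; red symbols are Em+ and blue are Em-, circles replicate 1 and triangles replicate 2. The symbols of nearly every member lie close together across the 4 libraries, while those of Usp26 and Usp9y separate by fraction.

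One tested member, Usp26, differed between the fractions at an adjusted p under 0.05 in edgeR's quasi-likelihood test. That is 2.22% of the 45 tested members, against 4.64% of all tested genes (559 of 12050, of which 460 or 3.82% were higher and 99 or 0.822% lower in Em+). The members' share rests on 1 gene, so its gap to the background share is not read as a property of the family. Of the 45 members, 34 had a positive and 11 a negative log2 fold change (Em+ over Em-), and 44 were within 0.5 of 0. The median of the members was 0.09 against 0.00 over all tested genes with TMM scaling. With the library totals behind the deposited FPKM in place of TMM, 15 members were positive and 30 negative, the members' median turned to -0.065, and that of all genes was -0.16.

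Both Em+ libraries lay above both Em- libraries in CPM for 24 tested members, and below them for 6. Over all tested genes these orders each held for 29.7%. At an unadjusted p under 0.05 there were 15 members, all higher in Em+, or 33.3% against 25.3% of all tested genes. The share of all genes holds both directions, and that of higher genes alone was not counted. These orders and counts rest on TMM scaling. With library totals in its place 30 of the 45 members were negative, so they are not read as a rise of the family. The 95% intervals of the 44 members that were not called hold for the main fit only. They rest on the spread of 2 libraries per fraction, which may be technical, and on TMM scaling. They lay within 0.5 of 0 on the log2 scale for 35 members and reached past 0.5 for the other 9, up to 0.79 for Usp34.

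**Figure D2:**
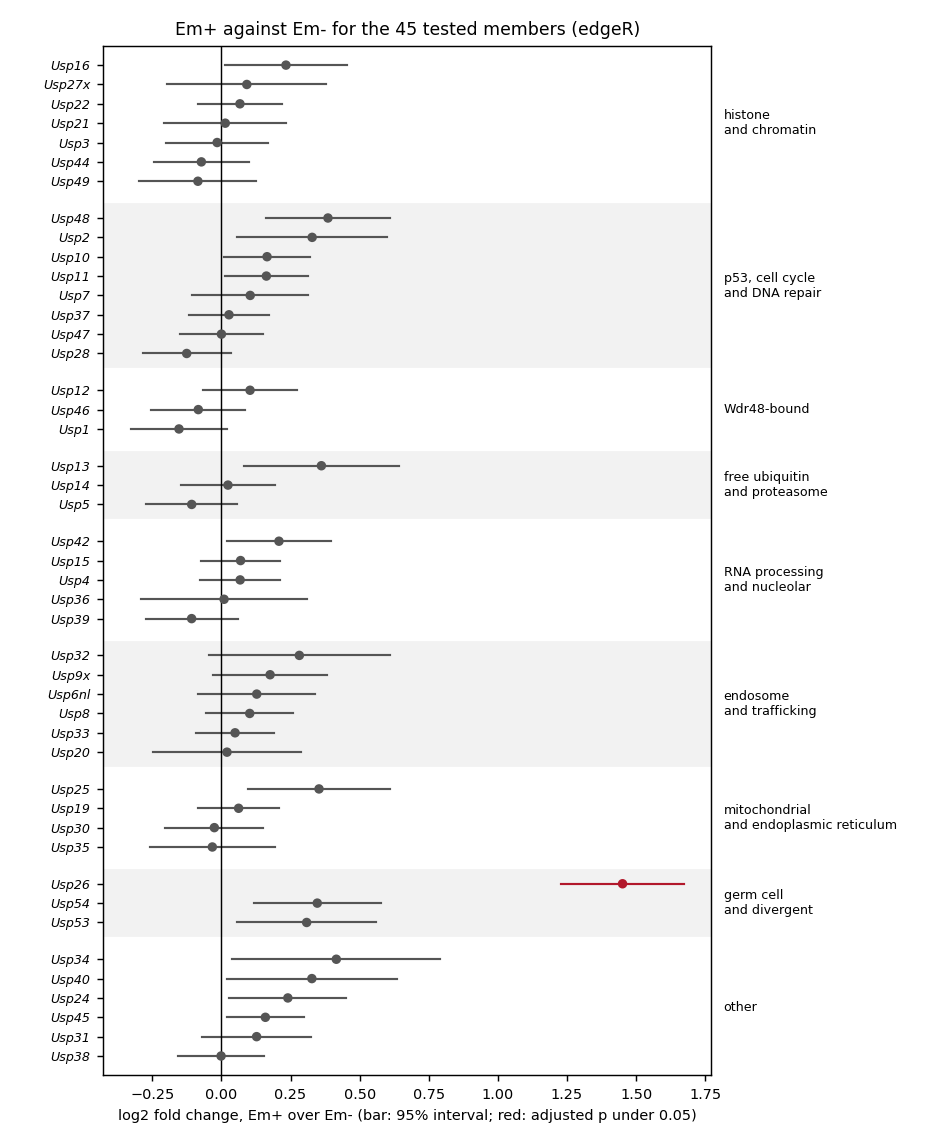
Log2 fold change (Em+ over Em-) of the 45 tested members, grouped by role, with 95% intervals from edgeR; red marks an adjusted p under 0.05. Usp26 stands at 1.45, and the next highest member, Usp34, at 0.42 with an interval from 0.04 to 0.79.

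Usp26 is a gene on chromosome X (51753959 to 51801233 on mm10) best known from testis, where germ cells transcribe it. Its counts were 1478 and 1505 in Em+ and 578 and 628 in Em-. Scaled to CPM these were 82.4 and 95.1 against 31.8 and 33.1, a mean of 88.7 ± 8.97 (SD, n = 2) against 32.4 ± 0.937 (SD, n = 2). The Em+ libraries were both higher than the Em- libraries, by more than the spread within either fraction. The log2 fold change was 1.45 (SE 0.095, 95% interval 1.23 to 1.67, edgeR adjusted p = 1.14e-04).

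Per length, Usp26 was at 9.78 and 9.61 FPKM in Em+ and at 3.89 and 4.07 in Em-. By mean FPKM it ranked 24th of the 51 members in Em+ and 37th in Em-. It was thus a mid-level member in the Em+ cells, not one of the abundant ones. The change was called under all 15 alternatives run, with log2 fold changes of 1.10 to 1.55 and adjusted p values of at most 1.58e-04. Summed per symbol, it was 1.44 in the Ensembl table, 1.39 in the known-gene table and 1.44 in the ENCODE table. All tables count reads of the same libraries. The Ensembl and ENCODE tables each hold an entry with exactly the RefSeq counts, so these values are no separate support.

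The genes around Usp26 within 500 kb were read for comparison. Hs6st2, a heparan sulfate sulfotransferase, was near silent at 1.00 and 1.07 CPM in Em+ and 1.04 and 0.474 in Em-. The uncharacterised 1700080O16Rik held 16 and 5 counts against 3 and 1. Gpc4, a cell-surface glypican 251784 bp away, was at 12.5 and 16.7 CPM against 9.07 and 8.06 (log2 fold change 0.77, SE 0.165, edgeR adjusted p = 0.0465), with a value of similar size but no call in the other 3 tables (0.72 to 0.73, adjusted p 0.0519 to 0.0794). With limma it was 0.42 on the log2(FPKM + 1) scale and was not called. Gpc3, its paralog, had a log2 fold change of -0.08 (adjusted p = 0.609). Over chromosome X as a whole, 34 of 388 tested genes were called higher, or 8.76% against 3.82% of all tested genes, and 4 were called lower. The other tested X-linked members, Usp9x, Usp11 and Usp27x, were not called.

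Usp9y, the Y-linked copy of Usp9x (chromosome Y, 1298961 to 1459782 on mm10), has been studied mainly in male infertility. Its counts were 159 and 223 in Em+ and 7 and 3 in Em-. In CPM these were 8.86 and 14.1 against 0.385 and 0.158, and in FPKM 0.537 and 0.727 against 0.024 and 0.009. Its level was low in all 4 libraries, but the fractions did not overlap. The ratio of scaled summed counts, 382 against 10, was 42.0 with an exact 95% interval of 22.6 to 88.4 that covers counting error only.

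With a mean of 0.324 FPKM Usp9y fell below the filter of the main test. Without any filter, where 5.95% of 19797 genes were called, its log2 fold change was 5.31 (SE 0.37, edgeR adjusted p = 1.95e-05). In the fit with a mean FPKM of at least 0.1, in which 6.68% of 16607 genes were called, it was 5.33, but the gene entered that fit only through its Em+ values (mean 0.632 FPKM, against 0.0165 in Em-), so this value is no further support. Leaving out 1 library at a time in that fit, an alternative chosen after seeing the data, gave 4.83 to 6.07, given as a description only. The known-gene table gave the same counts, and the Ensembl and ENCODE tables did not list the gene. Since the treatment of reads that match both Usp9y and its close copy Usp9x is unknown, Usp9y is uncertain as a single entry. Usp9x itself, which removes ubiquitin from endosomal and adhesion proteins, was at 1062 and 1177 CPM in Em+ and 994 and 988 in Em- (log2 fold change 0.18, SE 0.088, adjusted p = 0.253).

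None of the 3 other Y-linked genes within 500 kb of Usp9y that passed the filter was called. Ddx3y, an RNA helicase 12347 bp away, was at 74.3 and 64.5 CPM in Em+ and 68.0 and 67.3 in Em- (log2 fold change 0.04, adjusted p = 0.825). Uty, a histone demethylase homolog, was at 20.7 and 25.4 against 20.7 and 19.8 (0.19, adjusted p = 0.361). Eif2s3y, a translation initiation factor subunit, was at 71.7 and 72.5 against 77.4 and 78.3 (-0.11, adjusted p = 0.343). The fractions overlapped in CPM for Ddx3y, and Eif2s3y was slightly lower in both Em+ libraries. Uba1y, a ubiquitin-activating enzyme below the filter, held 61 and 51 counts against 40 and 28 (log2 fold change 0.82, adjusted p = 0.0900 in the fit from 0.1 FPKM). Kdm5d held 21 and 21 counts against 15 and 17, and Tspy-ps at most 1 in any library.

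**Figure D3:**
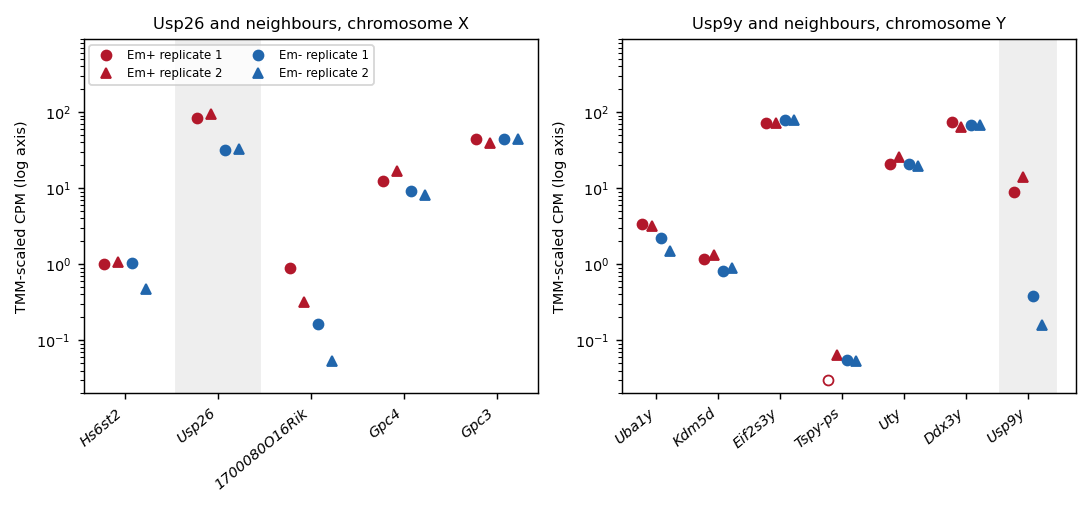
TMM-scaled CPM (log axis) of Usp26, Usp9y and the genes within 500 kb of each, in chromosome order, with 1 symbol per library (red Em+, blue Em-; open symbols were at 0). Usp26 (82.4 and 95.1 against 31.8 and 33.1) and Usp9y (8.86 and 14.1 against 0.385 and 0.158) separate by fraction, while Ddx3y, Uty, Eif2s3y and Gpc3 lie close together in all 4 libraries.

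The remaining members below the filter were Usp18, Usp29, Usp43, Usp50 and Usp51. Usp18, which removes the ubiquitin-like protein ISG15, held 4 and 0 counts in Em+ and 2 and 2 in Em-. Usp29, an imprinted gene, held 2 and 7 against 5 and 14. Usp43, Usp50 and Usp51 were low but measurable, with 123 and 144 against 134 and 137, 32 and 34 against 39 and 26, and 70 and 69 against 98 and 78. The fractions overlapped in CPM for each of these 5 genes in the RefSeq table. Usp50 passed the filter in the other tables, at a log2 fold change of 0.44 (known-gene), 0.30 (Ensembl) and 0.29 (ENCODE). Usp43 was at -0.02 (Ensembl) and -0.03 (ENCODE), and Usp51 at -0.13 (known-gene). None of these was called.

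None of the 7 tested histone and chromatin proteases was called, and their median log2 fold change was 0.01. Usp22, the histone protease of the SAGA coactivator complex, had the highest level of the group, at 263 and 249 CPM in Em+ and 249 and 240 in Em- (log2 fold change 0.07, adjusted p = 0.550). Usp16, which acts on ubiquitinated histones in mitosis and in gene activation, had the highest value, at 39.1 and 44.9 against 34.4 and 37.0 (0.23, adjusted p = 0.177). Usp49, another histone protease, had the lowest, at 46.7 and 53.2 against 51.2 and 54.7 (-0.09, adjusted p = 0.583). Usp27x, a paralog of Usp22 that uses the same partner proteins, was at 12.4 and 11.1 against 11.5 and 10.6 (0.09, adjusted p = 0.667).

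The 8 tested proteases of p53, the cell cycle and DNA repair had a median of 0.13, and none was called. Usp28, which stabilises Myc and takes part in the p53 response, was at 415 and 439 CPM in Em+ and 463 and 468 in Em-. It had the highest level per length in the family and the lowest log2 fold change of this group (-0.13, SE 0.068, adjusted p = 0.288). Usp48, a nuclear protease linked to DNA repair, came closest to the threshold of all members not called, at 511 and 613 CPM against 429 and 431 (0.39, SE 0.095, 95% interval 0.16 to 0.61, adjusted p = 0.0654). Both its Em+ libraries were above both Em- libraries, and DESeq2, which called 5.75% of all genes, did call it (adjusted p = 0.00894). With Em- replicate 1 left out it was at 0.38 and not called (adjusted p = 0.363), and with Em- replicate 2 left out it was at 0.39 and not called (adjusted p = 0.273). With library totals in place of TMM it was at 0.22 (adjusted p = 0.453), and with limma on log2(FPKM + 1) at 0.21 (adjusted p = 0.489). Usp7, which keeps Mdm2 and p53 stable, was at 406 and 479 against 409 and 415, with overlapping fractions.

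The 3 Wdr48-bound proteases had a median of -0.08. Usp1, which acts on Fancd2 and Pcna in DNA repair, had the lowest log2 fold change of all tested members, at 137 and 124 CPM in Em+ and 140 and 150 in Em- (-0.15, SE 0.075, adjusted p = 0.245). Its relatives Usp12 and Usp46 were at 0.10 and -0.08. No member of this group was called.

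The 3 proteases of free ubiquitin chains and the proteasome had a median of 0.02, with none called. Usp14, which trims ubiquitin from substrates at the proteasome, had the highest level of the group at 233 and 257 CPM in Em+ and 236 and 246 in Em- (0.02, adjusted p = 0.866). Usp5, which takes apart unanchored chains, had the lowest value, at 180 and 163 against 186 and 184 (-0.11, adjusted p = 0.367). Its paralog Usp13 had the highest, at 13.0 and 12.6 against 9.40 and 10.5 (0.36, SE 0.120, adjusted p = 0.126).

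The 5 RNA processing and nucleolar proteases had a median of 0.07, with none called. Usp15, a partner of the spliceosome recycling factor Sart3, had the highest level per length, at 174 and 178 CPM in Em+ and 167 and 168 in Em-. Usp42 had the highest log2 fold change (0.21, adjusted p = 0.167), and Usp39, a splicing factor that has lost protease activity, the lowest (-0.11, adjusted p = 0.373). Usp36, the nucleolar protease that stabilises Myc, was at 43.6 and 58.0 against 51.0 and 49.9, so that its Em+ libraries lay on either side of both Em- libraries (0.01, adjusted p = 0.972).

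The 6 tested members of the endosome and trafficking group had a median of 0.12, and none was called. Usp32, a membrane-anchored protease, had the highest value, at 127 and 175 CPM in Em+ and 118 and 129 in Em- (0.28, SE 0.140, adjusted p = 0.252), with overlapping fractions. Without Em+ replicate 1 it was at 0.50 and without Em+ replicate 2 at 0.029. Usp20, a protease of recycling receptors, had the lowest, at 12.4 and 13.1 against 13.0 and 12.1 (0.02, adjusted p = 0.929). Usp8, which works with the sorting complexes of the endosome, was at 162 and 175 against 155 and 159 (0.10, adjusted p = 0.373).

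The 4 mitochondrial and endoplasmic reticulum proteases had a median of 0.02, with none called. Usp19, anchored in the endoplasmic reticulum, had the highest level at 105 and 107 CPM in Em+ and 101 and 102 in Em-. Usp25 had the highest value, at 23.4 and 25.4 against 20.4 and 17.7 (0.35, SE 0.11, adjusted p = 0.112), and Usp35 the lowest (-0.03, adjusted p = 0.859). Usp30, which opposes the removal of damaged mitochondria, was at 31.2 and 30.3 against 31.5 and 31.0.

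In the germ cell and divergent group, Usp53 and Usp54 stood beside Usp26. Usp53, a protein of tight junctions, was at 52.2 and 64.2 CPM in Em+ and 46.0 and 47.9 in Em- (0.31, SE 0.108, adjusted p = 0.141). Usp54 was at 62.8 and 74.3 against 52.7 and 55.1 (0.35, SE 0.098, adjusted p = 0.0905). Both had higher values in both Em+ libraries and neither was called.

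Among the 6 other tested proteases the median was 0.20, and none was called. Usp34, a very large protease of the Wnt pathway, had the highest value, at 272 and 400 CPM in Em+ and 241 and 262 in Em- (0.42, SE 0.161, adjusted p = 0.168). The gap between its Em+ libraries was wider than that between the lower of them and Em-, and its value came to 0.67 with Em+ replicate 1 left out and to 0.11 with Em+ replicate 2 left out. Usp38 had the lowest value, at 120 and 113 against 118 and 115 (0.00, adjusted p = 0.993), and Usp45, with the highest level per length of the group, was at 176 and 177 against 159 and 158 (0.16, adjusted p = 0.159).

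The Em+ replicates were less alike than the Em- replicates. The median absolute log2 ratio of replicate 2 to replicate 1 in CPM was 0.117 over the 45 tested members in Em+ and 0.035 in Em-. Over all tested genes it was 0.139 and 0.061. Across the 45 members the Em+ ratio went with transcript length (Spearman's rho 0.41), and less so over all 12050 genes (0.28). In Em- the values were 0.26 and 0.10. These are correlations across genes of the same libraries, given as a description. In deposited FPKM, Em+ replicate 2 was the lowest of the 4 libraries for 30 of the 45 members and for 71.6% of all tested genes. In that library the smallest share of the total behind FPKM (43.4%) fell in the RefSeq table, so this order is not read as lower transcription.

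The number of called members followed which Em+ library was used. Without Em+ replicate 1, 23 members were called, 20 higher and 3 lower, while 41.4% of all genes were called (21.9% higher, 19.5% lower). Without Em+ replicate 2, 6 were called, 4 higher and 2 lower, while 16.3% of all genes were (9.43% higher, 6.9% lower). Among the members that passed in both fits, Usp26, Usp45, Usp48 and Usp54 kept their direction. Usp36 was the exception, at 0.20 without replicate 1 (adjusted p = 0.0158) and -0.21 without replicate 2 (adjusted p = 0.0382). Usp48 was at 0.51 and 0.25 in these fits, Usp54 at 0.46 and 0.22 and Usp45 at 0.16 in both. In both fits the remaining Em+ library is assumed to vary like the Em- libraries. Both fits also share the Em- libraries, so like directions are no independent support. How many of all genes passed in both was not counted. Of the members, only Usp26 was called with all 4 libraries.

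**Figure D4:**
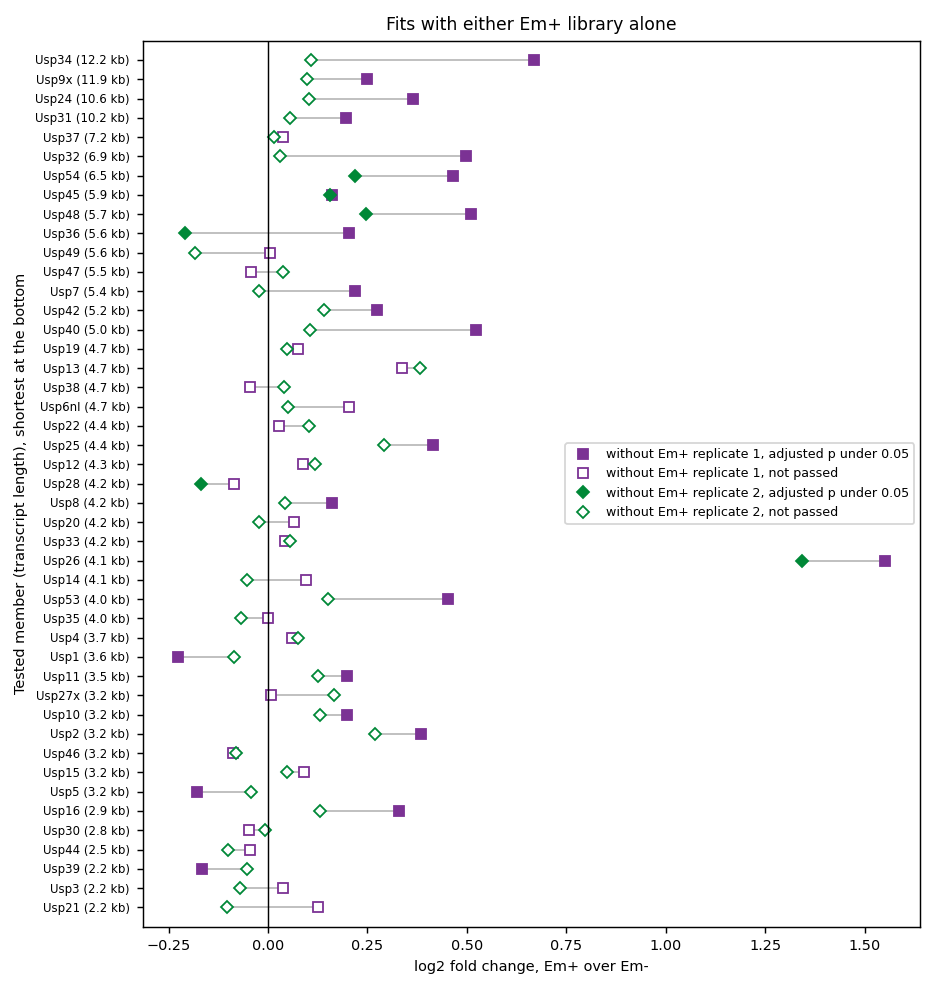
Log2 fold change (Em+ over Em-) of the 45 tested members, ordered by transcript length, in edgeR fits without Em+ replicate 1 (squares) and without Em+ replicate 2 (diamonds); filled symbols passed an adjusted p under 0.05. Usp26 lies far to the right in both fits, and Usp36 passes on opposite sides of 0.

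The transcript models of the 4 deposited tables gave some members very different read numbers. Counts summed over the 4 libraries were under 0.5 times those of the RefSeq table in the Ensembl table for 8 members and over 1.5 times for 3. Usp8 held 11516 counts in the RefSeq table and 269 in the Ensembl table, Usp1 9837 and 797, and Usp45 11847 and 2803. Usp29 and Usp50 went the other way, from 28 to 294 and from 131 to 390. For the 43 members tested in all 4 tables the fold changes moved less than the levels. The median spread of their log2 fold change was 0.02, and 4 of them spread by at least 0.1. Usp8, Usp29 and Usp50 did not pass the filter in every table and are not among the 43. Usp20 had the widest spread, 0.53, from 0.02 in the RefSeq table to 0.55 in the Ensembl table.

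Of 37 names looked up for deubiquitinases of other families, 34 were listed. Of these 30 were tested and 2 were called, both higher in Em+ (median log2 fold change 0.04). Over all tested genes 4.64% were called and 3.82% were called higher, so this small count is not read as a result about these families. Otud6a, an X-linked gene of the OTU family (chromosome X, 100429013 to 100429885), was at 28.9 and 23.8 CPM in Em+ and 13.4 and 12.0 in Em- (1.06, SE 0.13, edgeR adjusted p = 0.00409), and was called under every alternative. Cyld, a tumour suppressor that removes ubiquitin chains in NF-kB signalling, was at 121 and 125 against 95.1 and 94.2 (0.38, SE 0.063, edgeR adjusted p = 0.0174). Its log2 fold change hardly moved, to 0.38 and 0.37, but its adjusted p rose to 0.227 when Em- replicate 1 was left out and 0.209 when Em- replicate 2 was left out. With the library totals in place of TMM it was at 0.22 (adjusted p = 0.398), and with limma on log2(FPKM + 1) at 0.19 (adjusted p = 0.393).

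None of the other pathway lists held a called gene. Of 6 ubiquitin genes and activating enzymes 5 were tested (median -0.15), and Rps27a, a ubiquitin fusion gene, was farthest from 0 (-0.18, adjusted p = 0.181). Ubb, a polyubiquitin gene, held only 6 to 12 counts in the RefSeq table and was below the filter. Since the treatment of reads that match several transcripts is unknown, this count is not read as its level in the cells. Of 14 names of partners of the family 13 were listed and 12 tested (median 0.00, Stam2 highest in size at 0.24). Of 18 names of substrates 17 were listed and 16 tested (median -0.12). Hist1h2ab, one of many near-identical histone genes and so uncertain as a single entry, was at -0.50 (adjusted p = 0.0678). Of 7 genes of the ISG15 pathway 2 were tested, Stat2 at 0.27, and Isg15 itself held at most 3 counts.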

How the data were processed

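Per the file headers, the authors deposited for each library a raw read count and an FPKM value per transcript, in 4 tables built on RefSeq, known-gene, Ensembl and ENCODE models. The submitters' processing notes name Bowtie2 and mm10. For the counting program, its strand setting and reads that match several transcripts, the method is not given in the sources used here. Close gene copies, overlapping genes and antisense partners are for that reason uncertain as single entries.

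The RefSeq table was used, summed per symbol. There Em- replicate 1 has 0 in every line of its count column, and its counts were rebuilt from its FPKM, the transcript lengths and the library total behind FPKM. For the other libraries this returned the deposited count for at least 99.95% of 24538 transcripts. Em+ replicate 1 had 17927765 counts in total, Em+ replicate 2 had 16468218, Em- replicate 1 had 18364973 and Em- replicate 2 had 18953217. Genes at a mean of 1 FPKM or more were tested with edgeR 4.0.16 in R 4.3.3 (glmQLFit, glmQLFTest, TMM, two-sided, all 4 libraries, no covariate), with Benjamini-Hochberg adjustment over 12050 genes and a threshold of 0.05. A gene past it is said to be called. CPM is TMM-scaled, and 95% intervals come from the fit. On simulated counts for the 12050 genes the test called 66.7% of 33 genes raised by 0.5 on the log2 scale and all of those raised by 1. The simulation gave every gene the common coefficient of variation, equal in both fractions, whereas the real Em+ replicates were less alike. These shares hold for that setting only.

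Alternatives were DESeq2 1.42.0, RLE size factors, the library totals behind FPKM, other filters, limma 3.58.1 on log2(FPKM + 1) and on log2(FPKM + 0.1), a replicate block, the other 3 tables and each library left out. Named are members that were called and, per role group, those with the highest FPKM and the highest and lowest log2 fold change; members below the filter; and, per pathway list, called genes or the gene farthest from 0. A planned look at the proteins' active sites was not made. Usp7, Usp8, Usp27x, Usp30, Usp36, Usp12 and Usp46 were added for their role or after their values were seen. Neighbours were chosen by distance. The members, the lists and the test were chosen with earlier results of these data known.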

Additional observations from a re-analysis of the deposited data

How the results depend on the processing

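Usp26 was called under all 15 alternatives. The number of called members rose from 1 to 2 with DESeq2 (Usp48, background 5.75%), to 2 without an FPKM filter (5.95%) and to 2 with a mean FPKM of at least 0.1 (6.68%), where Usp9y was the addition, entering the latter only through its Em+ values. Leaving out 1 library gave 1 to 23 called members and 490 to 4992 called genes. The count of all called genes moved from 559 to 1178 without a filter, 1109 with a mean FPKM of at least 0.1, and 293 and 269 with limma on log2(FPKM + 1) and log2(FPKM + 0.1). With library totals in place of TMM it was 627, but split into 334 higher and 293 lower rather than 460 and 99. The cause was not tested. The members' median of 0.09 became -0.065 with library totals, -0.063 with limma at a pseudocount of 1 and -0.071 at 0.1. The median of all genes shifted with it, to -0.16, -0.14 and -0.16. Usp36 was at -0.21 without Em+ replicate 2 and at 0.20 without Em+ replicate 1, past the threshold both times. Of 672 member values under alternatives, 33 newly passed the threshold, Usp36 among them on both sides of 0, and 97 changed sign without passing it in either fit.

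With the replicate number as a block 6 members (Usp26, Usp34, Usp40, Usp48, Usp53 and Usp54) and 1552 genes (12.9%) were called. The labels do not say that the numbers mark a shared culture or sort, and deviations from the group means of same-numbered libraries did not correlate (r = 0.0034 over 12050 genes), so the numbers were not taken to pair the samples. With 2 libraries in a fraction, members with few reads are limited most, and members under 1 FPKM other than Usp9y allow no statement on small differences.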
